A study of Mus musculus with 12 samples.

Results

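A total of 10166 peaks of N6-methyladenosine (m6A) were called in UV-exposed mouse skin with no overlapping call in control skin. They were taken from the authors' deposited peak table, whose 42989 rows each belong to 1 arm, UV or control. The members were chosen by these calls alone: a row was kept when it came from the UV arm and shared no base with any control-arm row on the same chromosome and strand. The kept rows made up 40.7% of the 24969 UV-arm peaks and 23.6% of all rows. The other 14803 UV-arm peaks overlapped a control-arm peak (shared peaks), and 2671 of the 18020 control-arm peaks overlapped no UV-arm peak (control-only peaks). The peak calls of the 2 arms chose the members, so every UV and control value at these peaks is given as a description and no difference at them is tested as support.

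The study compared skin of UV-treated mice with skin of control mice, with 3 samples in each group. Each sample gave a library of RNA enriched with an m6A antibody (IP) and a library of the same RNA without enrichment (input), both made with a stranded mRNA kit from total RNA. By its title the series is about photoaging, with Virma (KIAA1429), a subunit of the m6A writer, and Mfap4, a microfibril gene, at its centre. The strain, age and sex of the mice, the type and dose of UV, the time after exposure and whether each sample is 1 animal were not stated in the labels, so p-values measure the spread between these samples, which may be technical. Markers of the labelled tissue were present in every library: the basal keratinocyte keratin gene Krt5 had 3460, 2808 and 2898 CPM (reads scaled to library size) in the UV inputs and 2180, 1514 and 2535 CPM in the control inputs.

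m6A is a methyl mark on adenosines inside messenger RNA. It is written by a complex with Mettl3 and Mettl14 at its core and Virma as a scaffold, removed by Fto and Alkbh5, and read by YTH-domain proteins that affect splicing, translation and decay. The mark favours the motif GGAC, long internal exons and the region around the stop codon, and a related methylated base, m6Am, lies next to the cap at the first transcribed base. Antibodies against m6A also bind m6Am, so a peak at a transcript's first bases does not say which of these marks was bound. A peak call rests on IP reads above input reads in a window, and the depth of the libraries enters it.

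The letters under these peaks were available for transcript starts, through RefSeq start windows of GRCm38.p6 that run from 250 bases before to 50 bases after each start. Of the 10166 peaks, 949 (9.34%) touched such a window and 552 (5.43%) covered all of the first 50 transcribed bases, against 4.999% of shared peaks and 2.81% of control-only peaks. GGAC, read on the transcribed strand, was present in the first 50 bases of 21.1% of the 584 start windows covered by UV-only peaks. The share was 22.9% at shared peaks, 23.8% at control-only peaks and 18.9% over all 32851 windows. On the opposite strand GGAC was found in 18.3% of the windows covered by UV-only peaks and 17.4% of all windows.

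The following stretches show GGAC, in capitals, in the first transcribed bases of 6 genes. These had the highest UV IP level among 86 genes with GGAC in a start covered by a UV-only peak. The 86 are not all such genes, since long peaks, a chromosome and windows whose RefSeq symbol differed from the host's name were left out. Each stretch is 30 bases long, 5′ to 3′ on the transcribed strand, from RefSeq GRCm38.p6.
Arhgdia, chr11:120581575-120581604, minus strand: aagtgaccgtccgagcggcgggcggcGGAC
Tra2b, chr16:22265956-22265985, minus strand: gccttcgggggagtgggtgGGACcaggtta
Drap1, chr19:5424930-5424959, minus strand: tggcgggcgagcccggggaaGGACgcgcac
Abca12, chr1:71414861-71414890, minus strand: tctctctggagtgtGGACttcgcacaagag
Il6st, chr13:112464090-112464119, plus strand: taggagagcccgggtcagcggcGGACggag
Setd3, chr12:108179195-108179224, minus strand: ggttggttgaggcGGACggtggggtcccgg

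At the start of Abca12, which encodes the lipid transporter of keratinocyte lamellar granules, log2 IP over input was 1.28, 0.85 and 0.88 in UV samples and 1.04, 1.54 and 1.23 in control samples. At the start of Il6st, the gp130 subunit of interleukin-6 family receptors, it was 1.25, 1.31 and 1.30 in UV samples and 0.66, 1.25 and 0.64 in control samples. The start of Arhgdia had 0.62, 0.95 and 0.98 in UV samples and 1.12, 1.41 and 0.89 in control samples. Only at Il6st, of these 3, did all UV values lie above all control values. There the lowest UV value, 1.254, barely exceeded the highest control value, 1.247. At none of the 3 was IP below input in any sample. The mean IP level was 12.3 CPM in UV and 12.8 CPM in control at Abca12, 12.02 CPM in UV and 11.99 CPM in control at Il6st, and 138 CPM in UV and 147 CPM in control at Arhgdia.

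The start windows of Cdkn1a were printed because its UV-only peak had the largest difference in IP level of the peaks described here. Cdkn1a encodes p21, the cyclin-dependent kinase inhibitor through which p53 halts the cell cycle. RefSeq gives it a start at chr17:29090979 and another at chr17:29093769, both on the plus strand, and both windows are shown from 250 bases before to 30 bases after the start. Capitals mark matches to the p53 half-site consensus, which reads alike on both strands.
Cdkn1a upstream start, chr17:29090729-29091008: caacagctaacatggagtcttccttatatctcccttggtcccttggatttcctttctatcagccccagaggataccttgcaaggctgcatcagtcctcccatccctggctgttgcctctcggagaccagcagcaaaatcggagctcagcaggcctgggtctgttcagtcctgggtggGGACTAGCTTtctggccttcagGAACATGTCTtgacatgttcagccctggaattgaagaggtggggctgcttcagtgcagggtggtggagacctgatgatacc
Cdkn1a downstream start, chr17:29093519-29093798: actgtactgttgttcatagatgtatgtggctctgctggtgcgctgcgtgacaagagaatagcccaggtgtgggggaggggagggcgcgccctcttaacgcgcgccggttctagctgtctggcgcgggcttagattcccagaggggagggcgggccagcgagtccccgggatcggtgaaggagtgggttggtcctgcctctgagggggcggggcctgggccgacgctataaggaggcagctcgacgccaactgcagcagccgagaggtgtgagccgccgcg
The upstream window held 2 half-site matches and its first 50 transcribed bases were covered by the UV-only peak. The downstream window held 0, and no peak row of either arm touched it. A half-site match was present in 8.36% of all 32851 windows and in 6.51% of the 584 windows whose first bases UV-only peaks covered. A match is a description of the letters and not a bound site.

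The Cdkn1a peak at chr17:29090979-29091068 began at the upstream start. It had 216, 548 and 235 IP reads in UV samples and 21, 42 and 6 in control samples. Input reads there numbered 134, 179 and 223 in UV samples and 21, 9 and 33 in control samples. Both IP and input were therefore higher in every UV library than in any control library. Scaled to library size, the IP level was 6.67, 6.43 and 5.84 CPM in UV samples and 0.387, 0.778 and 0.228 CPM in control samples, a log2 difference of 3.81 with no test. The input level was 3.56, 3.31 and 3.33 CPM in UV samples and 0.319, 0.314 and 0.529 CPM in control samples, a log2 difference of 3.05. IP over input, which is the measure of methylation here, was 0.90, 0.95 and 0.80 on the log2 scale in UV samples and 0.25, 1.21 and −1.09 in control samples, so the groups overlapped.

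Elsewhere in Cdkn1a the difference was smaller. Its shared peak in the last exon, at chr17:29100485-29100633, had 16.1, 12.2 and 13.5 CPM in the UV IP libraries and 9.60, 10.2 and 9.55 CPM in the control IP libraries, a log2 difference of 0.50. Over all exons the gene rose in the UV inputs by 0.41 on the log2 scale (SE 0.07, adjusted p = 0.0194, edgeR quasi-likelihood test, Benjamini-Hochberg over all genes tested). That call ended with library size scaling alone (adjusted p = 0.103) and without any of 4 single samples, at adjusted p of 0.0517 without control replicate 1, 0.0974 without UV replicate 1, 0.0841 without UV replicate 2 and 0.0701 without UV replicate 3. The p53 and damage response list, on which Cdkn1a stands, had 13 of its 21 genes called higher in the UV inputs and 0 called lower, where the background over all genes was 3.02% higher and 2.81% lower. Without UV replicate 1 it had 6 called higher, where the background was 0.405%. Of the list, 8 genes held 8 UV-only peaks, and the UV values of IP over input all lay above the control values at 0 of the 8, against 21.5% of all UV-only peaks and 9.67% of all rows.

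**Figure D1:**
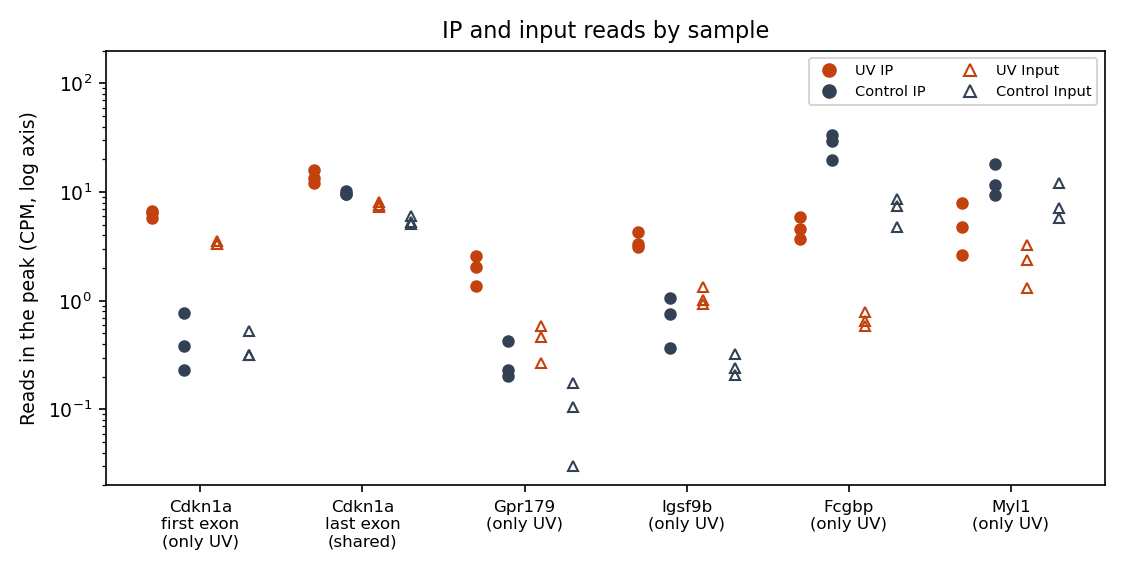
Reads in CPM (log axis) in each sample at 6 peaks, with IP as filled circles, input as open triangles, UV in orange and control in slate. At the Cdkn1a first exon the UV IP values sit between 5.84 and 6.67 CPM and no control IP value is above 0.778 CPM, while at Fcgbp the control values lie above the UV values.

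Other UV-only peaks with a large difference in IP level were chosen after their values were seen, and those of Gpr179 and Igsf9b differed in input as well. A last-exon peak of Gpr179, an orphan receptor gene known from retinal bipolar cells, had 83, 174 and 55 IP reads in UV samples and 11, 23 and 6 in control samples. Its log2 difference was 2.66 in IP level and 1.82 in input level, and the gene rose in the UV inputs by 2.41 (SE 0.27, adjusted p = 0.00468, edgeR). A first-exon peak of Igsf9b, an adhesion protein of inhibitory synapses, had 140, 285 and 127 IP reads in UV samples and 58, 20 and 20 in control samples, with log2 differences of 2.34 in IP and 1.94 in input. Igsf9b rose in the UV inputs by 1.83 (SE 0.15, adjusted p = 0.00208, edgeR). Log2 IP over input at the Gpr179 peak was 2.06, 2.05 and 2.19 in UV samples and 1.79, 1.69 and 0.31 in control samples, with every UV value higher. At the Igsf9b peak it was 1.67, 1.78 and 1.60 in UV samples and 1.97, 0.72 and 1.15 in control samples, and the groups overlapped.

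The call in UV alone also fell on genes with far fewer reads in UV skin. A peak of Fcgbp, a mucin-like IgG Fc binding protein of mucosal surfaces, at chr7:28071236-28075074, had 119, 389 and 238 IP reads in UV samples and 1816, 1071 and 780 in control samples. Its IP level was 4.72 CPM in UV samples and 27.7 CPM in control samples, and the gene fell in the UV inputs by 2.41 (SE 0.21, adjusted p = 0.00262, edgeR). IP over input was 2.57, 2.46 and 3.09 on the log2 scale in UV samples and 1.95, 2.06 and 1.99 in control samples, so the control libraries held this peak well above input although no control call was made. Peaks in the muscle genes Myl1, a myosin light chain, and Des, the muscle intermediate filament desmin, had lower IP levels in UV as well. The Myl1 peak averaged 5.14 CPM in UV IP libraries and 13.1 CPM in control IP libraries, and the Des peak 25.6 CPM in UV IP libraries and 58.1 CPM in control IP libraries. The 10 skeletal muscle markers summed to 5053 to 13840 CPM in UV inputs and 11258 to 24227 CPM in control inputs, and the part of muscle content in these 2 peaks was not tested. In bulk skin, fewer cells of a type and less RNA per cell cannot be told apart.

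Over the whole set, the median IP over input was higher in every UV sample than in any control sample. Over the 10166 peaks it was 1.14, 1.19 and 1.17 on the log2 scale in UV samples and 0.67, 0.91 and 0.55 in control samples. The mean of the sample medians was 1.17 ± 0.03 in UV and 0.71 ± 0.18 in control (SD, n = 3 each). At shared peaks the medians were 1.27, 1.34 and 1.28 in UV samples and 1.23, 1.41 and 1.17 in control samples. Control-only peaks ran the other way, with 0.66, 0.87 and 0.72 in UV samples and 1.18, 1.30 and 1.11 in control samples. These orders follow from how the 3 classes were picked and are no evidence of a change in methylation.

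**Figure D2:**
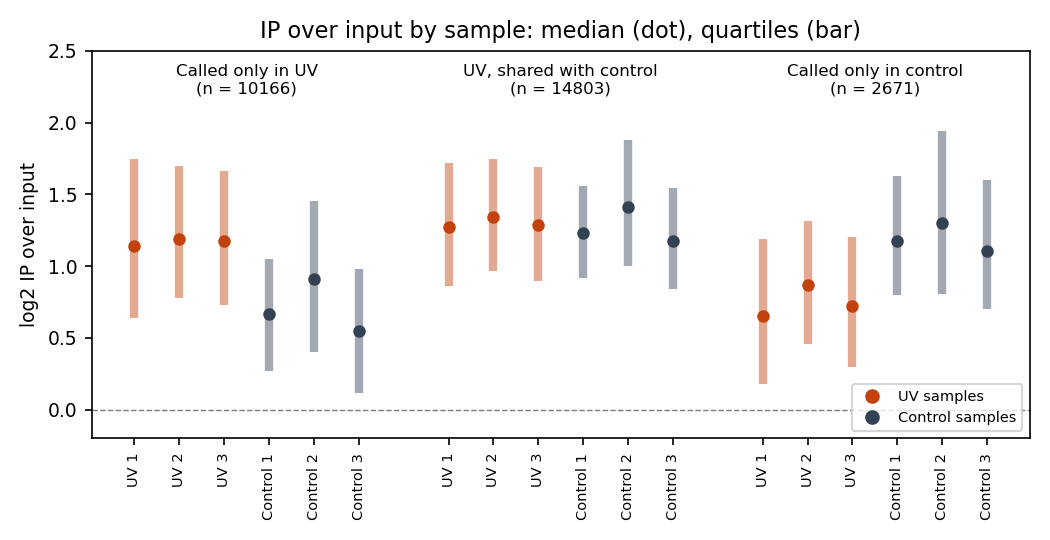
Log2 IP over input in each sample for peaks called only in UV, shared UV-arm peaks and control-only peaks; dots are medians and bars run from the first to the third quartile over peaks. UV-only peaks had medians of 1.14 to 1.19 in UV samples and 0.55 to 0.91 in control samples, all above 0.

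How many UV-only peaks were enriched in control skin as well depended on the scaling. With TMM factors from the gene table, IP exceeded input in all 3 control samples at 6838 of the 10166 peaks (67.3%, against a background of 90.3% over all peak rows). With library size alone the count was 5302 (52.2%, background 84.7%). With TMM on the peak table, which centres on peaks by construction, it was 515 (5.07%, background 31.7%) and the control median of log2 IP over input was −0.41. Every statement here that a library lay above or below input refers to the gene table scaling. IP exceeded input in all 3 UV samples at 9329 (91.8%, background 95.0%). A stricter count, of peaks with IP at 2 times input or more in all 3 samples of a group, gave 3482 in UV (34.3%, background 48.1%) and 666 in control (6.55%, background 42.0%). IP was at or below input in all 3 control samples at 280 peaks (2.75%, background 1.0%).

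The median UV minus control difference of log2 IP over input was 0.42, with quartiles at 0.10 and 0.86, against −0.00 at shared peaks and 0.03 over all rows. All 3 UV values lay above all 3 control values at 2187 UV-only peaks (21.5%, background 9.67%) and below them at 114 (1.12%, background 8.72%). The rule used this contrast, so nothing is read from these shares. Control replicate 2 had the shallowest input library, at 24126662 reads in genes, and the highest control median at UV-only peaks. Without it the UV values lay above the control values at 4198 UV-only peaks (41.3%) and at 23.4% of all rows.

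In the fit across all peak rows that passed the filter on low counts, the change of IP over input passed the test at 0 of the 9237 UV-only peaks fitted, in either direction. Over all 41537 rows fitted the share called was 0.0% higher and 0.0% lower (edgeR quasi-likelihood test of the interaction, adjusted p under 0.05). At an unadjusted p under 0.05 there were 1305 UV-only peaks, and 7.68% of all rows. DESeq2 called 5 higher, where the background was 0.0169% of all rows, and 0 lower, where it was 0.00241%. With the sample shared by IP and input as a block, 53 UV-only peaks were called higher and 4 lower, where the background was 0.224% higher and 0.197% lower. Without control replicate 2, edgeR called 4 higher, where the background was 0.0143%. The rule used this contrast as well, and the counts are given without a reading.

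The difference lay in input as well as in IP. The median log2 difference between UV and control was 0.15 in IP level and −0.29 in input level over the UV-only peaks. At shared peaks both medians were near 0, at −0.01 for IP and −0.03 for input, and over all rows they were 0.00 and −0.06. The IP level was lower in UV than in control at 3278 UV-only peaks (32.2%, background 49.8%), and the input level was lower in UV at 7470 (73.5%, background 56.3%). Control-only peaks showed the opposite signs, with −0.33 in IP and 0.12 in input. The calls that chose these classes rest on IP and input reads, so nothing is read from these shares and signs. The signs for UV-only peaks were the same with library size scaling alone, at 0.13 in IP and −0.39 in input, and with scaling on the peak table, at 0.16 and −0.29.

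UV-only peaks were faint, and so were control-only peaks. The median level of UV-only peaks was 0.928 CPM in UV IP libraries and 0.849 CPM in control IP libraries, and 0.350 CPM in UV inputs and 0.465 CPM in control inputs. Control-only peaks had 0.533 CPM in UV IP and 0.677 CPM in control IP, and shared peaks 6.04 CPM in UV IP and 6.19 CPM in control IP. A mean under 1 CPM in the UV IP libraries was found at 5269 of the UV-only peaks. Among these the median UV minus control difference was 0.73, and IP exceeded input in all 3 control samples at 54.1%. Among the 4129 peaks from 1 to 10 CPM the difference was 0.27 and the share 80.8%, and among the 768 peaks at 10 CPM or more it was 0.04 and 84.6%. The summed reads in genes were 171158177 in the UV IP libraries and 144064112 in the control IP libraries, and their part in which arm a faint peak was called in was not tested.

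**Figure D3:**
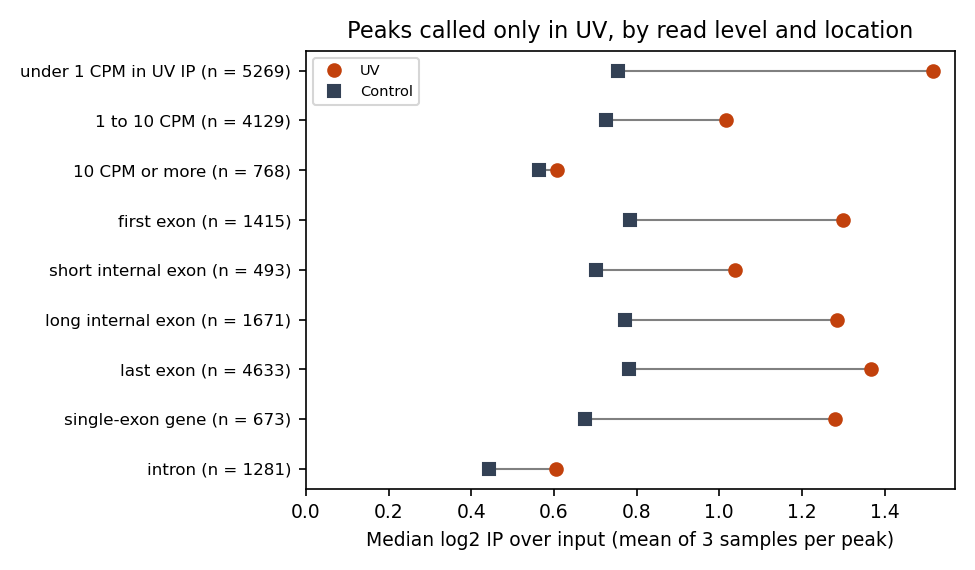
Median log2 IP over input in UV (circles) and control (squares) of peaks called only in UV, by mean level in the UV IP libraries and by where the peak midpoint lies in the host gene. The gap between UV and control is 0.73 for peaks under 1 CPM and 0.04 for peaks at 10 CPM or more, as medians of the differences per peak.

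Hosts with Gm, Rik or similar clone names were left out of this ranking, and 1 peak was kept per gene. Among the rest with at least 1 CPM in UV IP and no group overlap, the largest UV minus control differences were found in 10 genes. The third of them, in Arcn1, a coat protein of Golgi vesicles, at chr9:44741624-44741774, had 38, 95 and 52 IP reads in UV samples and 73, 42 and 12 in control samples. Log2 IP over input was 1.30, 1.43 and 1.54 in UV samples and 0.35, −0.66 and −1.15 in control samples. Every UV library was enriched there, and only control replicate 1 was above input. The peak of Stom, the membrane protein stomatin, at chr2:35315244-35315304, had 1.00, 0.52 and 1.49 in UV samples and −0.90, −1.23 and −0.59 in control samples. Stom is the one gene of the 10 whose peak was below input in all 3 control samples.

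The peak in Mark3, a polarity kinase that phosphorylates microtubule-associated proteins, at chr12:111574720-111574870, had 1.45, 1.99 and 2.00 in UV samples and 0.37, 0.02 and −0.11 in control samples. The peak in Rpl11, a ribosomal protein that also binds Mdm2, at chr4:136049731-136049999, had 2.05, 1.83 and 2.63 in UV samples and 0.61, 0.57 and 0.22 in control samples. The peak at the start of Trnp1, a nuclear DNA-associated protein, at chr4:133498196-133498550, had 2.56, 2.68 and 3.52 in UV samples and 0.53, 2.02 and 1.05 in control samples. In Rpl11 and Trnp1 all 3 control samples were above input. Fbxl19, an F-box protein that binds CpG-rich DNA, had 1.50, 0.65 and 1.91 in UV samples and −0.61, 0.24 and −0.59 in control samples. None of these hosts passed the expression test in the UV inputs, with adjusted p from 0.109 for Arcn1 to 0.905 for Rpl11 (edgeR).

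Of the ranked genes, Rn18s-rs5, with the sequence of 18S ribosomal RNA, had the largest difference, 2.66. It had 1.72 ± 0.28 in UV and −0.94 ± 0.83 in control (SD, n = 3 each). Its IP reads numbered 1146, 1746 and 920 in UV samples and 683, 6826 and 606 in control samples, and its input reads 327, 399 and 478 in UV samples against 2268, 3605 and 3770 in control samples. The separation at this peak thus came with fewer input reads in UV, while control replicate 2 held the most IP reads of all libraries. Near-identical ribosomal copies share its reads, so its level is uncertain. Kcnmb4os2, a transcript antisense to a potassium channel subunit gene, had a mean of 3.79 ± 1.50 in UV and 1.32 ± 0.54 in control, on 0, 5 and 9 input reads in UV samples and 19, 2 and 17 in control samples. Whether the counting used strand is not given in the sources used here, so reads of the partner gene may be included. Gal3st1, the sulfotransferase that makes sulfatide, averaged 2.01 ± 0.35 in UV and 0.25 ± 0.38 in control. Pcdhb17, a clustered protocadherin whose sequence resembles its neighbours, averaged 1.84 ± 0.62 in UV and −0.05 ± 0.59 in control.

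The opposite end of the set was formed by peaks that control libraries held as enriched as UV libraries. In Hipk2, a nuclear kinase that phosphorylates p53 after DNA damage, the peak at chr6:38697657-38697747 had 2.84, 2.89 and 2.33 in UV samples and 2.48, 3.10 and 3.23 in control samples. It lay 29 bases from a control-arm peak of the same gene. In Ubn1, a histone H3.3 chaperone subunit, the peak at chr16:5086195-5086285 had 1.80, 2.56 and 2.98 in UV samples and 1.64, 2.51 and 3.12 in control samples, on 75, 221 and 101 IP reads in UV samples and 110, 96 and 63 in control samples. The groups overlapped throughout at both. Pex2, a peroxisome assembly factor, had 2.12, 1.03 and 1.74 in UV samples and 2.31, 3.30 and 1.96 in control samples, and no control-arm peak was called in the gene. The values of Cdc42bpa and Cbfa2t3 in control replicate 2, at 4.87 and 5.20, rested on 0 input reads.

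**Figure D4:**
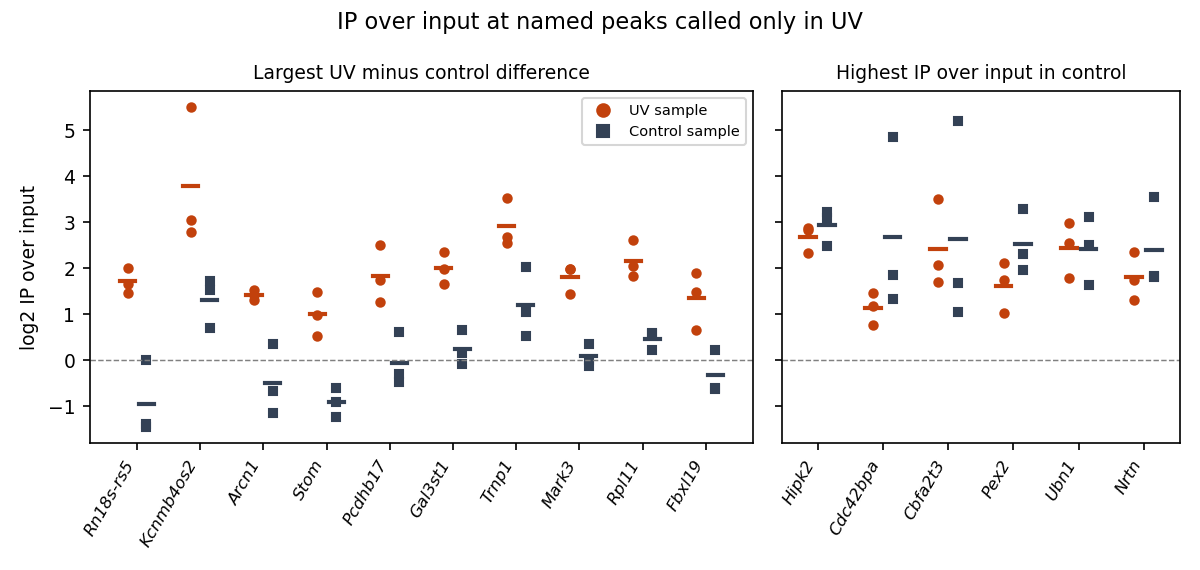
Log2 IP over input in each UV sample (circles) and control sample (squares), with means as short lines, at the 10 UV-only peaks with the largest UV minus control difference (left) and the 6 with the highest control mean (right). On the left no gene has overlapping groups, and on the right control means lie between 2.41 and 2.94.

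With Gm, Rik and similar hosts left out and 1 peak per gene, the members with the most reads belonged mostly to cornified-layer and housekeeping RNAs. A last-exon peak of Flg, which encodes filaggrin, the keratin-bundling protein of the skin barrier, averaged 7866 CPM in UV IP libraries and 7128 CPM in control IP libraries. Enrichment (log2 IP over input) was 0.72, 0.85 and 0.77 in UV samples and 0.79, 1.33 and 0.73 in control samples. The peak of Rptn, the cornified envelope protein repetin, averaged 1708 CPM in UV IP and 542 CPM in control IP, with 2264, 1452 and 1408 CPM in UV samples and 378, 69.9 and 1180 CPM in control samples. Its log2 IP over input was 0.88, 0.93 and 0.88 in UV samples and 1.16, 1.08 and 1.11 in control samples, so every control sample was above every UV sample. Calm4, a calmodulin-like skin protein, had 0.81, 0.92 and 0.89 in UV samples and 0.98, 0.83 and 0.89 in control samples. The noncoding RNA Rn7sk, which binds and holds back a transcription elongation factor, had the second most reads and went the other way by group mean, at 0.39, 0.71 and 0.82 in UV samples and 0.43, 0.13 and 0.22 in control samples. Eef1g, a subunit of translation elongation factor 1, had 0.40, 0.47 and 0.42 in UV samples and 0.65, 0.29 and 0.47 in control samples. Erdr1 had 1.15, 1.42 and 1.20 in UV samples and 1.52, 1.90 and 1.21 in control samples. Of these 6 peaks, Rn7sk alone had a higher mean in UV, and the groups overlapped there. In the UV inputs the Rn7sk peak held 2286, 1967 and 2201 CPM and the whole gene 519, 548 and 609 CPM. The Erdr1 peak held 296, 254 and 245 CPM there and the whole gene 136, 117 and 108 CPM. Peaks and genes were thus not counted alike, so the levels and ranks of these 2 peaks are uncertain.

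Where the members lie in genes differed from shared peaks in the direction of gene ends. By the midpoint, 13.9% of UV-only peaks were in a first exon, against 8.36% of shared peaks and 11.1% of control-only peaks. Internal exons shorter than 400 bases held 4.85% of them, against 2.07% of shared and 4.98% of control-only peaks. Long internal exons of 400 bases or more, the classical site of the mark, held 16.4% of UV-only, 20.3% of shared and 18.8% of control-only peaks. Last exons held 45.6% of UV-only, 43.3% of shared and 44.3% of control-only peaks. Introns held 12.6% of UV-only, 21.2% of shared and 12.7% of control-only peaks. A midpoint in an intron need not mean intronic reads, as a long row can join exon blocks across introns. The UV-only peaks with intronic midpoints had a median span of 1938 bases. On these shares the UV-only peaks stand nearer to the control-only peaks than to the shared ones in first, short internal and intronic location. No test was made, as peaks of 1 gene are not replicates. Shared peaks were longer, at a median span of 330 bases against 150 for UV-only peaks. The part of peak length in these shares was not tested.

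**Figure D5:**
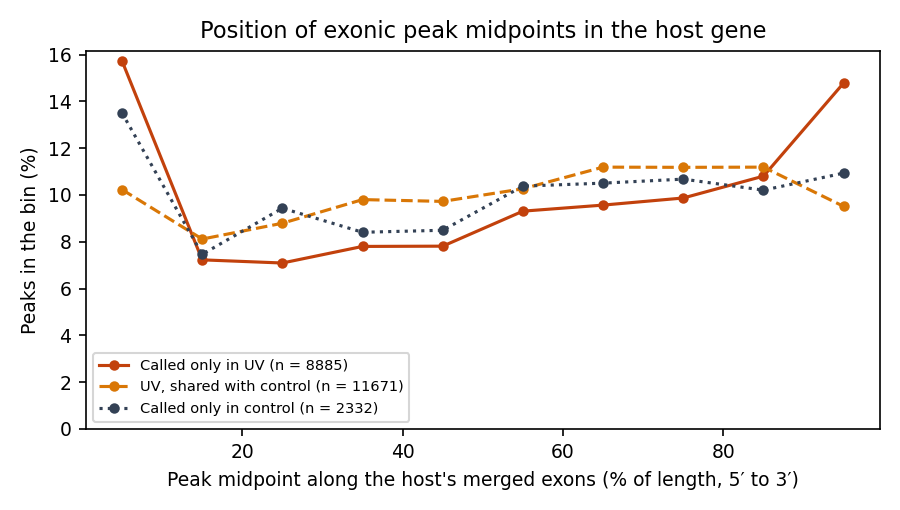
Share of exonic peak midpoints (%) in bins of 10% of the length of the host gene's merged exons, from the 5′ to the 3′ end, for peaks called only in UV, shared UV-arm peaks and control-only peaks. UV-only peaks put 15.7% of their midpoints in the first bin and 14.8% in the last, against 10.2% and 9.51% for shared peaks.

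Along the merged exons of their hosts, the first 10% of the length held 15.7% of exonic UV-only midpoints, against 10.2% at shared peaks and 13.5% at control-only peaks. The last 10% held 14.8%, against 9.51% at shared peaks and 10.9% at control-only peaks. UV-only peaks were short, with a median span of 150 bases (quartiles 91 and 211), against 330 bases at shared and 120 bases at control-only peaks. In 186 cases the span exceeded 10 kb, which in such a table covers introns between joined exon blocks. The difference between arms was smaller in introns, at a median of 0.13, than in last exons, at 0.52. The median level in UV IP was 4.51 CPM for the intronic peaks and 0.695 CPM for the last-exon peaks. The part of read level in this difference between locations was not tested.

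Many members stood beside a control peak. The nearest control-arm peak on the same strand was within 1 kb for 3365 (33.1%), and the median gap was 6600 bases. The closest, in Gm13889, was 4 bases away and had 1.44 ± 0.21 in UV and 1.00 ± 0.52 in control for log2 IP over input, and the next, in Lbhd1 at 20 bases, had 0.84 ± 0.08 in UV and 0.62 ± 0.35 in control. Just outside the rule, with 1 base shared, peaks of Cnga3 had 1.67 ± 0.93 in UV and 2.29 ± 1.23 in control and of Nrp2 1.30 ± 0.86 in UV and 2.13 ± 0.33 in control (SD, n = 3 each). The UV means lay above the control means at the peaks just inside the rule and below them at those just outside. So few peaks do not describe either side. The UV minus control difference was 0.45 for members under 1 kb from a control peak and 0.40 for the others.

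The members fell in 7083 genes, of which 6659 matched RefSeq and 96.8% of those were protein coding. A single member was found in 4950 genes, 2 or more in 2133 and 5 or more in 53. No control-arm peak was called in 2830 of the hosts, which held 3641 members (35.8%). Expression of the hosts in the input libraries was called higher in UV for 260 and lower for 145 of the 6969 tested, or 3.73% and 2.08%, against a background of 3.02% higher and 2.81% lower over all genes (edgeR, adjusted p under 0.05). Without UV replicate 1 the counts were 44 higher and 16 lower, where the background was 0.405% higher and 0.473% lower. Calls of peaks depend on the reads of their genes, so nothing is read from these shares.

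Among hosts without Gm, Rik or similar names, Kcnq1ot1 held the most members. This long noncoding RNA silences the imprinted Kcnq1 domain in cis, and its gene had 24 control-arm peaks. Of its 34 UV-arm peaks, 19 were members. Their UV means of log2 IP over input ran from 0.59 to 1.85 and their control means from −0.13 to 1.25, and at 3 of the 19 (15.8%) all UV values were above all control values, against 21.5% of all UV-only peaks and 9.67% of all rows. Frem2, an extracellular matrix protein of the epidermal basement membrane, held 11 members, with UV means of 0.78 to 1.93 and control means of 0.05 to 1.19. Dchs1, a giant cadherin of planar polarity, held 8, as did Flg. At 1 member each of Frem2, Dchs1 and Flg the groups did not overlap, and none of these 4 hosts passed the expression test (adjusted p from 0.287 to 0.721, edgeR).

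Virma, held under its older symbol 1110037F02Rik, had 3 UV-only peaks, all in long internal exons on chromosome 4. At chr4:11513682-11513742 log2 IP over input was 0.74, 1.68 and 0.73 in UV samples and 1.71, 1.52 and 0.28 in control samples. At chr4:11513982-11514072 it was 2.46, 2.61 and 0.62 in UV samples and 2.06, 1.86 and 1.34 in control samples, on 3, 3 and 11 input reads in UV samples. At chr4:11519159-11519309 it was 1.44, 1.84 and 1.32 in UV samples and 1.11, 0.30 and 1.58 in control samples. The groups overlapped at all 3, and the mean IP level was under 1 CPM in both groups at each. Mfap4 held no UV-only peak.

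Of the 21 genes of the m6A machinery, Virma among them, 11 held 14 members. Median log2 IP over input over these members was 1.31 in UV and 0.84 in control, and at 2 of the 14 (14.3%) the groups did not overlap, against 21.5% of all UV-only peaks and 9.67% of all rows. One was in the last exon of Alkbh5, the demethylase, with 2.12, 2.73 and 1.45 in UV samples and −0.43, 1.18 and −0.37 in control samples, on 8, 40 and 11 IP reads in UV samples and 8, 24 and 5 in control samples. The other was in the first exon of Ythdf3, a cytoplasmic reader, with 1.60, 1.50 and 1.39 in UV samples and 0.77, 1.06 and 1.00 in control samples. The catalytic subunit gene Mettl3 had a first-exon member at 0.96, 1.24 and 0.46 in UV samples and 0.59, 1.03 and 0.02 in control samples, where the groups overlapped. None of the 21 genes was called in either direction in the UV inputs by edgeR or under any alternative tried.

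The TGF-beta and matrix list, which covers ligands, receptors, Smads, latent TGF-beta binding proteins, matrix metalloproteinases and their inhibitors, had 17 of 23 genes with 29 members. Groups did not overlap at 11 of the 29 (37.9%), against 21.5% of all UV-only peaks and 9.67% of all rows, and the rule for members used this contrast. Among the ligands, a last-exon peak of Tgfb3 had 1.95, 1.24 and 1.37 in UV samples and 0.10, −0.75 and 0.92 in control samples. Smad7, the inhibitory Smad, had a first-exon peak at 1.95, 1.13 and 1.44 in UV samples and 0.25, 0.33 and −0.29 in control samples. The long internal exon peak of Ltbp3, a latent TGF-beta binding protein, was enriched in every library, at 2.52, 2.65 and 2.89 in UV samples and 1.77, 2.03 and 1.44 in control samples. Tgfb1, the main ligand of the family, had a long internal exon peak with overlapping groups, at 0.76, 1.13 and 0.40 in UV samples and 0.48, 0.75 and 0.50 in control samples. Ltbp2, which binds elastic microfibrils, had 2 members in its last exon, and the deeper one had 93, 280 and 86 IP reads in UV samples and 81, 70 and 18 in control samples. Ltbp2 rose in the UV inputs by 1.10 (SE 0.15, adjusted p = 0.0074, edgeR). Of the list, 2 genes were called higher and 5 lower in the UV inputs (background 3.02% and 2.81% of all genes). Those called lower were Tgfb2, Ltbp1, Ltbp4, Mmp3 and Mmp14, with log2 differences of −0.59, −0.42, −0.54, −0.46 and −0.53 in that order. Without UV replicate 1, 0 were called lower (background 0.473%).

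Matrix genes outside that list held members too. The last exon of Col1a1, the main interstitial collagen chain of dermis, had a peak at 1.22, 1.22 and 1.05 in UV samples and 0.22, 0.50 and 0.26 in control samples. In Eln, the gene for elastin, a last-exon peak had 1.89, 2.35 and 1.58 in UV samples and 1.21, 1.11 and 1.20 in control samples. At Pdgfra, the receptor that marks dermal fibroblasts, a last-exon peak had 0.83, 1.12 and 1.75 in UV samples and 0.47, 0.43 and −0.17 in control samples. The groups did not overlap at these 3 peaks, the only ones of the 11 members in 6 of the 11 fibroblast genes where that held (27.3%, against 21.5% of all UV-only peaks and 9.67% of all rows). Fibroblast markers summed to 6280 to 7264 CPM in UV inputs and 8881 to 9850 CPM in control inputs, and their part in these values was not tested.

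Some keratin genes had members in their first or last exons, and Krt5 had an internal one. The last-exon peak of Krt1, the suprabasal type II keratin, had 1.88, 1.60 and 1.93 in UV samples and 0.76, 0.66 and 1.05 in control samples, at 82.3 CPM in UV IP and 49.3 CPM in control IP. Its partner Krt10 had a last-exon peak at 0.59, 0.75 and 0.76 in UV samples and −0.06, −0.01 and 0.01 in control samples, where IP was close to input in all control samples. The first-exon peak of Krt14, the basal type I keratin, had 1.37, 1.31 and 1.53 in UV samples and 0.72, 1.00 and 0.87 in control samples. Krt6a, a keratin of stressed and wounded epidermis, had a first-exon peak at 1.07, 1.17 and 0.93 in UV samples and 0.37, 0.39 and 0.26 in control samples. The groups did not overlap at these 4 peaks, of which those of Krt1 and Krt10 were chosen after their values were seen. Over the lists, all UV values lay above all control values at 3 of 12 basal keratinocyte members, 4 of 21 differentiated keratinocyte members and 4 of 5 stress keratin members, against 21.5% of all UV-only peaks and 9.67% of all rows. Found at 1.12% of all UV-only peaks and 8.72% of all rows, the opposite order was seen at 2 basal and 2 differentiated keratinocyte members. Among them, the internal peak of Krt5 had 0.47, 0.78 and 0.85 in UV samples and 1.15, 1.00 and 1.13 in control samples. In Trp63, the master transcription factor of basal keratinocytes, a peak had −0.51, −0.49 and −0.20 in UV samples and 0.10, 0.01 and −0.11 in control samples. In Dsc1, a desmosomal cadherin of the upper epidermis, an internal peak had 0.45, 0.61 and 0.50 in UV samples and 0.99, 0.86 and 0.84 in control samples. Every control value was higher at these 3. Stress keratin markers summed to 4434 to 10417 CPM in UV inputs and 866 to 4786 CPM in control inputs, and the part of that difference in the peak values was not tested. Keratin paralogs and the repeats of filaggrin are alike in sequence, so the authors' counting could split their reads.

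Hair genes held 3 members in 2 of 10 genes, sebaceous genes 7 members in 6 of 9 genes and adipocyte genes 4 members in 4 of 8 genes. The groups did not overlap at 1 of the 3, 3 of the 7 and 2 of the 4 in that order of lists, against 21.5% of all UV-only peaks and 9.67% of all rows. The start of the hair keratin Krt31 had 2.91, 0.67 and 1.54 in UV samples and −0.04, 0.53 and 0.07 in control samples. Sox21, a transcription factor of the hair shaft, had a peak at 1.31, 0.87 and 1.41 in UV samples and 1.20, 1.58 and 0.89 in control samples, where the groups overlapped. In the sebaceous wax synthase Awat2 a last-exon peak had 3.01, 2.86 and 1.64 in UV samples and 1.14, −0.19 and 0.12 in control samples, on 0, 0 and 3 input reads in UV samples. In the fat droplet protein gene Cidec a last-exon peak had 1.45, 1.04 and 0.94 in UV samples and 0.24, −0.51 and −0.06 in control samples. The groups overlapped at the peak of the fatty acid desaturase gene Scd3, with 1.20, 1.03 and 0.89 in UV samples and 1.10, 0.75 and 1.14 in control samples. They overlapped as well at Plin4, a lipid droplet coat protein, with 0.97, 0.68 and 0.59 in UV samples and 0.74, 0.55 and 0.56 in control samples. The sebaceous genes Far2 and Soat1 held members whose hosts rose in the UV inputs, by 0.82 (adjusted p = 0.00423) and 0.96 (adjusted p = 0.00587, edgeR). The Far2 peak had overlapping groups, at 0.93, 0.71 and 0.91 in UV samples and 0.64, 0.81 and 0.64 in control samples. The Soat1 last-exon peak was enriched in all libraries, at 2.02, 1.89 and 1.92 in UV samples and 1.64, 1.75 and 1.73 in control samples.

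Immune genes held members on very different numbers of reads. Cd68, a lysosomal protein of macrophages, had a peak with 255, 695 and 299 IP reads in UV samples and 362, 302 and 222 in control samples. Its log2 IP over input was 0.91, 1.08 and 0.72 in UV samples and 0.52, 0.65 and 0.68 in control samples, and the groups did not overlap. Cd3e, a chain of the T cell receptor complex, had a UV-only peak with 9, 14 and 8 IP reads in UV samples and 27, 55 and 18 in control samples, against 3, 4 and 4 input reads in UV samples and 36, 21 and 80 in control samples. On the log2 scale, IP over input was 1.41, 0.84 and 1.26 in UV samples and −0.13, 0.46 and −0.87 in control samples. Cd3e fell in the UV inputs by 3.01 (SE 0.25, adjusted p = 0.00228, edgeR), and the T cell markers summed to 2.63 to 3.46 CPM in UV inputs and 9.36 to 11.4 CPM in control inputs. The mast cell tryptase gene Tpsb2 had a peak with 6, 21 and 7 IP reads in UV samples and 3, 0 and 0 in control samples, on 0, 0 and 1 input reads in UV samples and 2, 0 and 2 in control samples. Another mast cell gene, the chymase Mcpt4, had 46, 171 and 73 IP reads in UV samples and 51, 22 and 24 in control samples, and log2 IP over input of 2.03, 2.197 and 2.66 in UV samples and 1.96, 3.50 and 1.34 in control samples, where the groups overlapped. None of the 5 Langerhans and dendritic cell genes held a member.

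Of the 14 clock genes, 11 held 19 members, and the groups did not overlap at 3 of the 19 (15.8%), against 21.5% of all UV-only peaks and 9.67% of all rows. The 3 were in Per3, Per1 and Tef. The period gene Per3 had a long internal exon peak at 1.55, 1.34 and 1.46 in UV samples and 0.99, 0.93 and 0.72 in control samples. A long internal exon peak of Per1 had 1.42, 1.02 and 1.36 in UV samples and 0.26, 0.48 and 0.51 in control samples. In Tef, a clock output transcription factor, an internal peak had 1.17, 0.58 and 0.90 in UV samples and 0.39, 0.32 and −0.07 in control samples. In Nr1d1, a repressor of the clock loop, a long internal exon peak had 1.44, 1.28 and 1.08 in UV samples and 0.53, 1.20 and 0.32 in control samples, and the groups overlapped. Both members of Dbp, another output factor, overlapped between groups. The hosts themselves rose in the UV inputs: by 1.11 for Per1 (adjusted p = 0.0101), 0.90 for Per3 (adjusted p = 0.00966), 0.74 for Tef (adjusted p = 0.00508) and 1.89 for Dbp (adjusted p = 0.00229, edgeR). Of the list, 9 genes were called higher and 2 lower (background 3.02% and 2.81% of all genes). Without UV replicate 1, 6 were called higher (background 0.405%), and without UV replicate 3, 0 were called lower (background 0.674%). The time of collection is not given in the sources used here, and its part in these values was not tested.

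Among developmental regulators, 13 of 45 Hox genes held 17 members, with a median log2 IP over input of 1.61 in UV and 0.63 in control. A last-exon peak of Hoxc8, a trunk Hox gene, at chr15:102993702-102993821, had 93, 305 and 127 IP reads in UV samples and 126, 79 and 47 in control samples. IP over input on the log2 scale was 2.10, 2.65 and 1.97 in UV samples and 0.64, 0.52 and 0.91 in control samples. In Hoxd4 both members had groups that did not overlap, at 1.24, 1.94 and 1.63 in UV samples and 0.34, 0.25 and −1.57 in control samples for the first, and 2.86, 1.24 and 2.05 in UV samples and 0.97, 1.14 and −0.23 in control samples for the second. Groups did not overlap at 6 of the 17 Hox members (35.3%), against 21.5% of all UV-only peaks and 9.67% of all rows. They overlapped at Hoxc9, with 0.82, 0.70 and 0.37 in UV samples and 0.21, 0.92 and 0.77 in control samples. Of 457 zinc finger genes, 235 held 399 members, and all UV values lay above all control values at 75 of these (18.8%), against 21.5% of all UV-only peaks and 9.67% of all rows. Histone genes held 7 members in 6 of 70 genes, among them Hist1h2al, where IP was below input in every sample, at −1.22, −1.36 and −1.59 in UV samples and −1.002, −1.23 and −1.28 in control samples. Histone copies are near-identical, so its level is uncertain.

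The other damage response hosts showed overlapping groups, as Cdkn1a did. The last-exon peak of Trp53inp1, a p53 target that promotes apoptosis, had 1.56, 1.40 and 1.25 in UV samples and 0.92, 1.66 and 0.90 in control samples. Gadd45a, a stress sensor in repair and arrest, had a first-exon peak at 1.45, 1.60 and 0.88 in UV samples and 0.94, 1.76 and 0.48 in control samples. Polk, the translesion polymerase kappa, had an internal peak at 1.23, 0.93 and 0.81 in UV samples and 1.42, 1.34 and −0.49 in control samples, and the gene rose in the UV inputs by 1.29 (SE 0.09, adjusted p = 0.00111, edgeR). Immediate early genes held 7 members in 5 of 10 genes, and the groups did not overlap at 2 of the 7 (28.6%), against 21.5% of all UV-only peaks and 9.67% of all rows. One was in Atf3, a stress-induced repressor, with 1.79, 1.51 and 1.47 in UV samples and 0.73, 1.12 and 0.53 in control samples. The other was a fainter peak of Egr1. The 3 members of the list with the highest IP level overlapped between groups. Junb, a subunit of the AP-1 factor, had 0.18, 0.41 and 0.22 in UV samples and 0.49, 0.82 and 0.09 in control samples. Egr1, a zinc finger factor induced by growth signals, had 1.39, 1.21 and 1.11 in UV samples and 1.03, 1.70 and 0.90 in control samples. Myc, a growth-promoting transcription factor, had 1.44, 1.45 and 2.15 in UV samples and 1.12, 1.36 and 1.49 in control samples.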

How the data were processed

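The authors deposited raw read counts per gene and per peak for 12 libraries, an IP and an input library of each of 3 UV and 3 control samples. Per the submitters' processing notes, reads were aligned with STAR 2.5.3a and the genome build was GRCm38. No source used here names the peak caller, the counter, its strand setting or whether duplicates were removed. Peaks were given per arm, not per sample. Among counts of 1 to 20, 79.5% to 83.6% per library were even in the gene table and 52.1% to 57.2% at UV-only peaks, so both mates of a pair may have been counted. Peak starts in the table counted from 0 and are printed counting from 1.

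Library sizes were reads in genes, 24126662 to 92163619 per library, with TMM factors of edgeR 4.0.16 in R 4.3.3. Log2 IP over input per sample is the log2 CPM of IP minus that of input, each with a prior count of 2. Levels are CPM without a prior. Their precision is limited by the reads printed and by 3 samples per group; chi-square per degree of freedom between replicates was 48.0 to 167, above counting noise. The change of IP over input was fitted on all peak rows and 12 libraries with 4 group means, and expression on the 6 input libraries, each with edgeR's quasi-likelihood test after filterByExpr and adjusted by Benjamini-Hochberg over all rows. The scripts were tested on simulated data. DESeq2 1.42.0, other scalings, no filter, a replicate block and leaving out each sample were alternatives.

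Over 11928 genes, an IP library and the input with its number departed from their group means together (correlation 0.61 to 0.87) and those of different numbers did not (−0.70 to −0.17), so numbers pair IP with input. The main fit of the change of IP over input did not use this pairing, and the block of the sample shared by IP and input did. Inputs of UV and control with the same number correlated at −0.11, 0.11 and −0.26 and were not paired.

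The members, the gene lists and the rule for named peaks were chosen with earlier results of these data known. Named were the 10 UV-only peaks with the largest UV minus control difference (at least 1 CPM in UV IP, at least 10 input reads per arm, groups not overlapping), the 6 with the highest control mean, the 6 with the most UV IP reads, the 4 hosts with most members, members of Virma and Mfap4, and the 3 highest per list. Hosts with Gm, Rik and similar clone names were left out of these rankings, and those of peaks kept 1 per gene. Peaks picked for IP level, and further list members, were named after their values were seen. Start windows, promoter letters and gene classes are from RefSeq GRCm38.p6, and peaks were placed by the midpoint in the merged exons of the host; other peak sequences were not used here.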

Additional observations from a re-analysis of the deposited data

How the results depend on the processing

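The number of UV-only peaks was 3655 when each had to hold at least 50 reads in every UV IP library, and between 6801 and 12895 under the other overlap rules tried. The UV median of log2 IP over input was 1.02 with library size scaling, 1.08 at members with at least 10 input reads per arm, 1.26 with a prior count of 0.5 and 0.055 with TMM on the peak table, which centres on peaks by construction. The control median was 0.47 with library size scaling and −0.41 with TMM on the peak table. With TMM on the peak table, 515 members had IP above input in all control samples (5.07%, background 31.7% of all rows). With library size scaling 5302 members did (52.2%, background 84.7% of all rows). Leaving out single samples gave UV medians of 1.15 to 1.18 and control medians of 0.61 to 0.79. IP then exceeded input in all remaining control samples at 6838 to 8040 members (67.3% to 79.1%, background 90.3% to 93.8% of all rows). All UV values lay above all control values at 2753 to 4198 members (27.1% to 41.3%, background 12.7% to 23.4% of all rows). The last 2 counts, under scaling and left-out samples, were chosen after seeing the data. For the change of IP over input, DESeq2 called 5 members higher, where the background was 0.0169% of all rows. With the sample shared by IP and input as a block, 53 members were called higher and 4 lower, where the background was 0.224% higher and 0.197% lower. Single left-out samples gave 0 to 4 higher and 0 lower, where the background was 0.0% to 0.0143% higher and 0.0% lower. Hosts called higher in expression numbered 170 with library size scaling, 475 by DESeq2, 402 without a filter, 139 with the replicate block, 53 at 2-fold or more and 44 to 473 with a sample left out, where the share of all genes called higher was 1.89%, 5.46%, 2.99%, 1.53%, 0.739% and 0.405% to 5.02%. Hosts called lower numbered 229, 281, 221, 64, 42 and 16 to 237 under the same alternatives, where the share called lower was 4.23%, 5.22%, 2.83%, 1.43%, 1.39% and 0.473% to 3.51%. The replicate block of the host expression test used the sample number. The numbers do not pair UV with control, so that block reflects shared numbers only. This limit does not apply to the block of the sample shared by IP and input. Of 729 values of 81 named peaks under alternatives, 721 stayed within 1 SD of the spread between samples and 8 moved further, and 64 values at 25 peaks, with differences near 0, had the other sign. Many members were faint: 5269 lay under 1 CPM in UV IP, and the part of depth in their calls was not tested.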
